A study of Saccharomyces cerevisiae with 6 samples.

Results

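The cytosolic Hsp70 genes of budding yeast, SSA1, SSA2, SSA3, SSA4, SSB1, SSB2 and SSZ1, were followed in total RNA of a strain that lacks SSE1. The genes were picked by name from the array's platform annotation, and 7 of 7 were found among 5449 measured genes. The study asked which genes respond when a protein with no role in yeast is overproduced in cells sensitised by the loss of Sse1. All 6 arrays came from sse1 deletion cells in exponential phase, so the deletion is shared by both groups and there was no SSE1+ strain. The control group carried an empty plasmid (3 arrays). The other group (3 arrays) carried the yEVenus multi-copy plasmid; yEVenus is a yellow fluorescent protein made for use in yeast. Cultures of each group started from independent colonies, were grown at 30 °C in synthetic medium without leucine to an optical density of 0.6, and received no further treatment. The promoter of yEVenus, the marker of the plasmids and the parent strain are not given in the labels, and no value here measures yEVenus. In bulk RNA, fewer cells that express a gene and less RNA per cell cannot be told apart.

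Hsp70 proteins bind short hydrophobic stretches of unfolded chains and release them in a cycle of ATP binding and hydrolysis. J-domain proteins start the hydrolysis, and nucleotide exchange factors such as Sse1 reset the cycle. In yeast cytosol the Ssa proteins fold, refold, transport and help to degrade many clients, and cells need at least some Ssa protein to grow. SSA1 and SSA2 encode near-identical proteins that are made in unstressed cells, whereas SSA3 and SSA4 are known as stress-induced. SSB1 and SSB2 encode near-identical Hsp70 proteins that sit on the ribosome and meet nascent chains. SSZ1 encodes an atypical Hsp70 that pairs with the J-domain protein Zuo1 in the ribosome-associated complex, which stimulates Ssb. Hsf1, the heat shock factor, is held in check by Ssa proteins and drives several chaperone genes.

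Levels are log2 expression values of 1 probe set per gene, on which a step of 1 is a doubling, and they are compared between arrays only within a gene. Differences are yEVenus minus empty plasmid. "Fell" and "rose" are kept for genes with an adjusted p under 0.05 in limma's moderated test (Benjamini-Hochberg over all 5449 genes). The deleted gene, SSE1, served as a check on the strain: its log2 level was 3.14 ± 0.116 (SD, n = 3) in the controls and 3.17 ± 0.071 (SD, n = 3) in yEVenus cells. Tag probe sets, which are controls for sequences outside the yeast genome, had means of 2.76 to 4.08 over the 6 arrays, so SSE1 lay at the floor on all arrays. The 7 Hsp70 genes lay between 8.76 and 13.83 on the 6 arrays, all above that range.

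SSZ1, SSA1, SSB2, SSB1 and SSA2 fell with yEVenus, SSA4 missed the threshold and SSA3 stayed at the same mean. The falls ran from 0.58 for SSZ1 to 0.18 for SSA2 on the log2 scale, which leaves 0.67 and 0.884 of the control level. In all, 5 of the 7 genes were called, where 70.4% of all genes were, so that the count of calls is close to the background. All 5 calls were falls; 41% of all genes fell and 29.3% rose. The median log2 difference was -0.25 over the 7 genes and -0.07 over all genes.

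**Figure D1:**
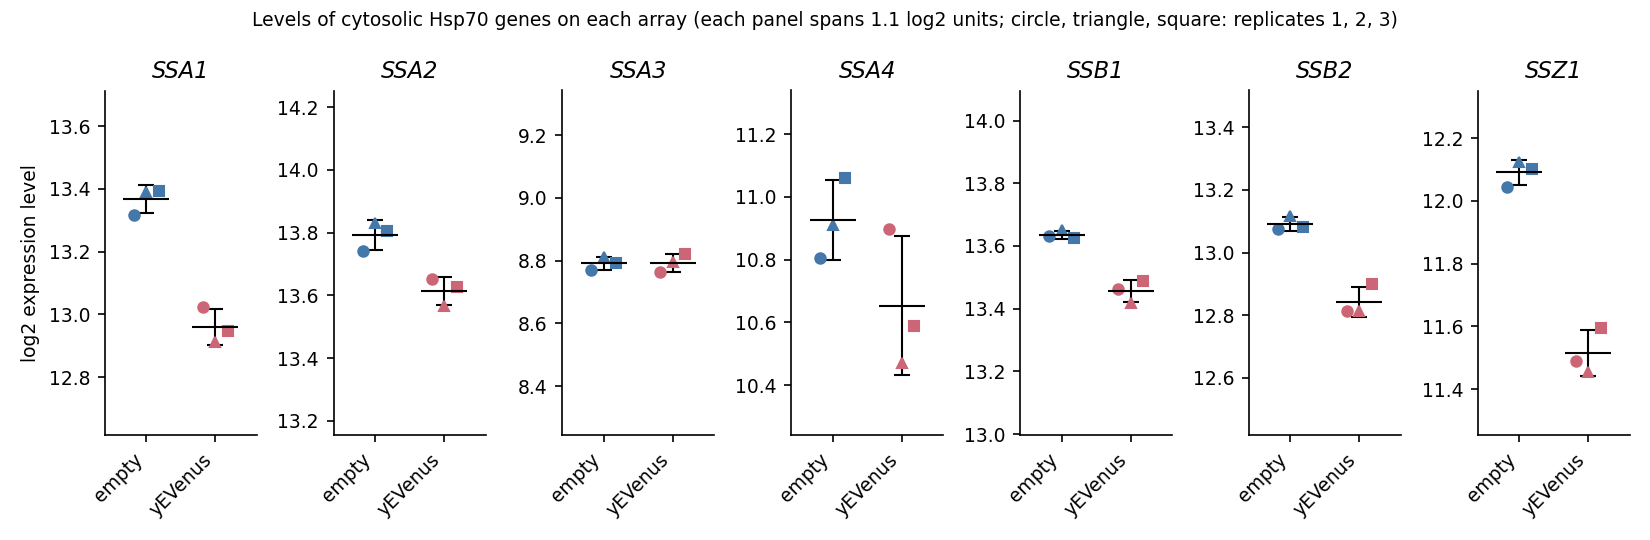
Log2 expression level (vertical axes, 1 panel per gene, each spanning the same number of log2 units at its own level) of the 7 cytosolic Hsp70 genes on the 3 empty-plasmid arrays (blue) and the 3 yEVenus arrays (red). Symbols mark the replicates, horizontal bars the group mean and whiskers the SD. The groups are apart for SSA1, SSA2, SSB1, SSB2 and SSZ1 and overlap for SSA3 and SSA4.

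Of the constitutive SSA genes, SSA1 (YAL005C, chromosome I) had log2 levels of 13.32, 13.39 and 13.39 on the empty-plasmid arrays and 13.02, 12.91 and 12.95 on the yEVenus arrays. Every yEVenus array lay below every control array. The mean went from 13.37 ± 0.044 to 12.96 ± 0.057 (SD, n = 3 each). The log2 difference was thus -0.41 ± 0.053 (SE), with an adjusted p of 0.000289 in limma. SSA2 (YLL024C, chromosome XII) had 13.74, 13.83 and 13.81 with the empty plasmid and 13.65, 13.56 and 13.63 with yEVenus. Its groups did not overlap either, but the gap between the nearest arrays was small. The difference was -0.18 ± 0.052 (SE; limma, adjusted p = 0.0152), and leaving out yEVenus replicate 2 gave -0.15 with an adjusted p of 0.0596. SSA1 and SSA2 share most of their sequence, and the probe sequences were not used here, so a part of each signal may come from the other gene.

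Of the stress-induced SSA genes, neither rose. SSA3 (YBL075C, chromosome II) had log2 levels of 8.77, 8.81 and 8.79 with the empty plasmid and 8.76, 8.79 and 8.82 with yEVenus. These values lay within a range of less than 0.1 in both groups and fully overlapped. The difference was 0.0018, with a 95% interval from -0.11 to 0.11 (limma, adjusted p = 0.975). SSA4 (YER103W, chromosome V) had 10.81, 10.91 and 11.06 with the empty plasmid and 10.90, 10.47 and 10.59 with yEVenus. On yEVenus arrays 2 and 3 it was below every control array, whereas yEVenus array 1 lay inside the control range. The difference was -0.27 ± 0.115 (SE), with a 95% interval from -0.54 to -0.0067 before adjustment, and it missed the threshold after it (limma, adjusted p = 0.0632). Without yEVenus replicate 1 the difference was -0.40 and the adjusted p 0.00858, and without empty-plasmid replicate 1 they were -0.33 and 0.0418. Leaving out any other single array gave -0.28 to -0.18, with an adjusted p of 0.0947 to 0.208 in limma, so that the threshold was missed. The result for SSA4 thus rests on single arrays.

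The SSB pair fell by similar amounts. SSB1 (YDL229W, chromosome IV) had log2 levels of 13.63, 13.65 and 13.62 with the empty plasmid and 13.46, 13.42 and 13.49 with yEVenus, a difference of -0.18 ± 0.047 (SE; limma, adjusted p = 0.00939). SSB2 (YNL209W, chromosome XIV) had 13.08, 13.12 and 13.08 with the empty plasmid and 12.81, 12.81 and 12.90 with yEVenus, a difference of -0.25 ± 0.049 (SE; limma, adjusted p = 0.00248). Neither gene's groups overlapped. SSB1 is the only one of the 7 genes with a further probe set. The brighter one was used; its identifier carries the suffix _s, which in the manufacturer's naming marks a probe set that can read more than 1 transcript. The other, without that suffix, went from 13.36 ± 0.032 to 13.15 ± 0.03 (SD, n = 3 each), a difference of -0.21 with an adjusted p of 0.00484 in a limma fit of all probe sets other than controls. The probe sets named for SSB1 thus gave the same direction, and how far SSB1 and SSB2 signals are shared was not tested.

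SSZ1 (YHR064C, chromosome VIII) had the largest fall of the 7. Its log2 levels were 12.04, 12.12 and 12.10 with the empty plasmid and 11.49, 11.46 and 11.60 with yEVenus. The nearest arrays of the groups were more than 0.4 apart. The mean went from 12.09 ± 0.041 to 11.51 ± 0.073 (SD, n = 3 each), a difference of -0.58 ± 0.056 (SE; limma, adjusted p = 7.08e-05). A lower difference was found for 9.08% of all genes. Against a minimum change of 1.2-fold, which 32.2% of all genes passed in limma's treat test, SSZ1 and SSA1 were the members that passed (adjusted p = 0.0019 and 0.0437). The groups did not overlap for 5 of the 7 genes, where 74.9% of all genes had groups apart.

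Whether related genes changed unequally was asked for 5 pairs from the within-array log2 difference of their probe sets. The test was a two-sided exact permutation of the array labels, whose smallest possible p with 3 arrays a group is 0.1, so that no pair could pass 0.05. SSA1 changed by -0.23 relative to SSA2, from -0.42 ± 0.014 to -0.65 ± 0.025 (SD, n = 3 each), and the groups did not overlap (exact permutation p = 0.1, adjusted over the 5 pairs 0.167). SSZ1 changed by -0.40 relative to SSB1, also without overlap (exact permutation p = 0.1, adjusted 0.167). SSB1 changed by 0.07 relative to SSB2 without overlap (exact permutation p = 0.1, adjusted 0.167). With the mean of the SSB1 probe sets, or with quantile normalization, this change was 0.05 (exact permutation p = 0.2 each, not adjusted). SSA3 changed by 0.27 relative to SSA4 with overlapping groups (exact permutation p = 0.3, adjusted 0.375), and SSA4 by -0.09 relative to SSA2 (exact permutation p = 0.5, adjusted 0.5). Leaving out each array in turn moved these differences within -0.24 to -0.22 for SSA1 and SSA2, -0.42 to -0.38 for SSZ1 and SSB1, 0.05 to 0.08 for SSB1 and SSB2, 0.18 to 0.41 for SSA3 and SSA4, and -0.20 to -0.03 for SSA4 and SSA2.

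Coding length and chromosome moved with the differences across the whole array and bear on these 7 genes. The median log2 difference was 0.57 over genes of up to 300 nt and -0.28 over genes of more than 3600 nt. The Hsp70 genes are long, with coding lengths of 1617 nt for SSZ1, 1842 nt for SSB1 and SSB2, and 1920 to 1950 nt for the SSA genes. Among the 1008 genes longer than 1500 and up to 2100 nt, the median was -0.17 and 50.2% fell. The gap between 3' and 5' control probe sets, averaged over 7 other yeast genes (an eighth, URA3, was at the floor and left out), was 1.80 to 1.86 on the control arrays and 2.43 to 2.56 on the yEVenus arrays. Of the genes kept, SRB4 had a 5' probe set (3.78) within the range of the tag probe sets. The part of this gap in the differences of the Hsp70 genes was not tested. The median over chromosome I, which holds SSA1, was -0.44 (90 genes, 63.3% fell), and over chromosome II, which holds SSA3, -0.32 (387 genes, 60.5% fell). The other 14 chromosomes had medians from -0.12 to 0.02, with 33.1% to 44.4% of genes falling.

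**Figure D2:**
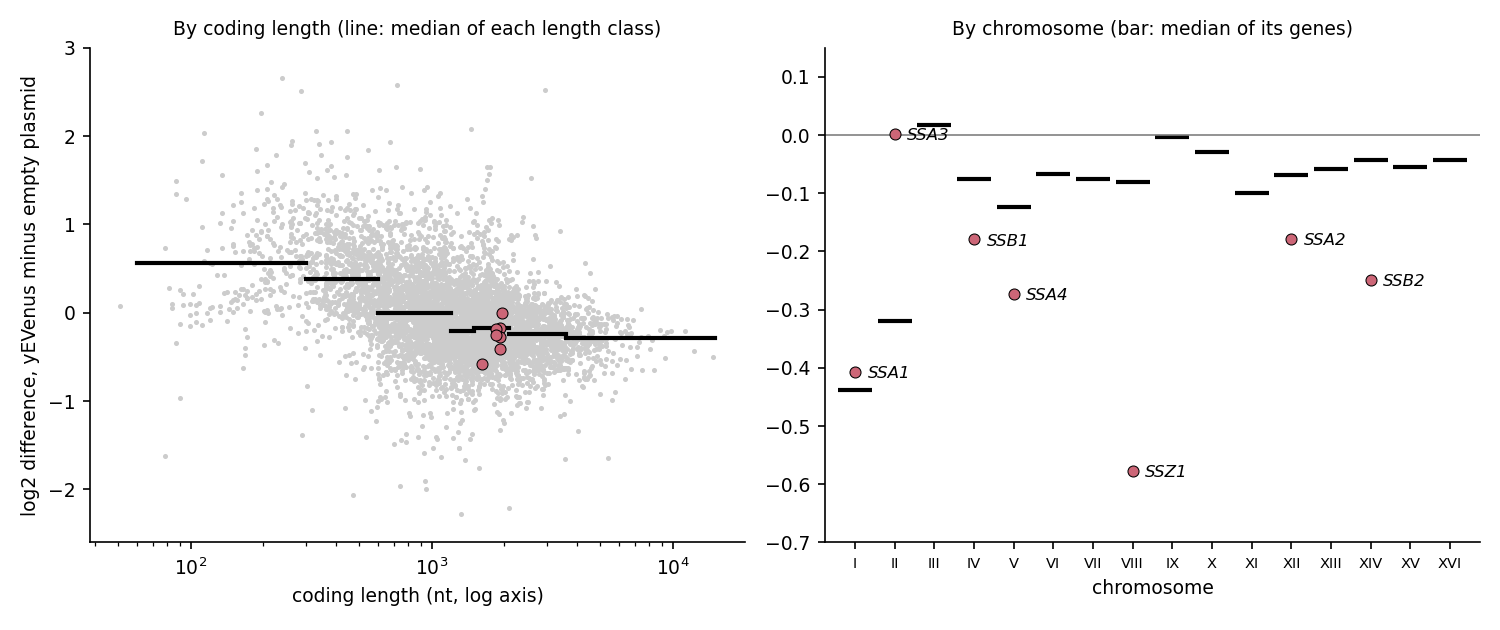
Left, log2 difference of all genes (grey) against coding length on a log axis, with the median of each length class (black lines) and the 7 Hsp70 genes (red). Right, median log2 difference of the genes of each chromosome (black bars) with the Hsp70 genes at their chromosome. SSA1 at -0.41 lies near the median of chromosome I (-0.44), SSA3 at 0.0018 lies above that of chromosome II (-0.32), and SSZ1 at -0.58 lies below that of chromosome VIII (-0.08).

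With the trend on coding length removed from each array, SSZ1 remained lower at -0.44 (limma, adjusted p = 0.000222) and SSA1 at -0.25 (adjusted p = 0.0033). SSA2 was then at -0.026 (adjusted p = 0.64), SSB1 at -0.034 (0.473), SSB2 at -0.10 (0.0555) and SSA4 at -0.12 (0.393), none past the threshold. SSA3 rose, at 0.16 (adjusted p = 0.0101). Under the same setting the deleted SSE1, of 2082 nt and at the floor on all arrays, went from 0.03 to 0.20 (adjusted p = 0.0305). A long gene with no transcript thus passed the threshold as well, and the part of the setting in the rise of SSA3 was not tested. In this setting 2 of the 7 genes fell and 1 rose, where 33.5% and 31.4% of all genes did.

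With each chromosome centred on its own median instead, SSZ1 was at -0.52 (limma, adjusted p = 0.000143) and SSB2 at -0.20 (0.00765), both still past the threshold. SSA1 was at -0.0010 (adjusted p = 0.988), and SSA3 rose by 0.30 (0.00108). In this setting 34% of all genes fell and 34.3% rose. SSA2 at -0.13 (0.0577), SSB1 at -0.11 (0.0601) and SSA4 at -0.19 (0.167) missed the threshold. The change of SSA1 relative to SSA2 turned from -0.23 to 0.12 under this setting. With length trend and chromosomes treated together, SSZ1 fell by 0.44 (adjusted p = 0.000262), SSB2 fell by 0.12 (0.0322), SSA3 rose by 0.40 (0.000182), and SSA1 turned to 0.10 (0.0985), where 32% of all genes fell and 32.5% rose. The deleted SSE1, at the floor, was then at 0.18 (limma, adjusted p = 0.0472). SSZ1 was thus the 1 gene of the 7 whose fall passed the threshold in all 4 settings.

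**Figure D3:**
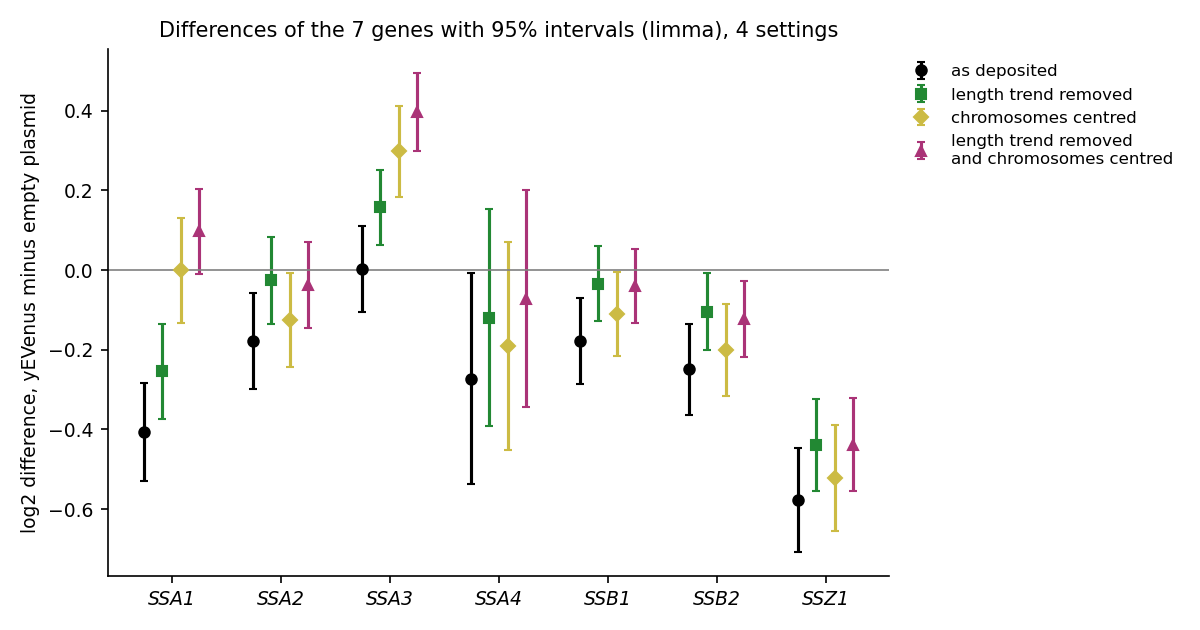
Log2 difference (yEVenus minus empty plasmid, vertical axis) of each gene with its 95% limma interval, as deposited (black circles), with the length trend removed (green squares), with chromosomes centred (yellow diamonds) and with both (purple triangles). SSZ1 lies between -0.58 and -0.44 in every setting, SSA1 moves from -0.41 to 0.10 and SSA3 from 0.0018 to 0.40.

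The spread among replicate cultures set SSA4 apart from the other genes of the family. Its SD was 0.128 on the control arrays, which was larger than that of 75.6% of genes, and 0.221 on the yEVenus arrays, larger than that of 98.3%. SSA3 and SSB1 were among the steadiest, with control SDs of 0.0201 and 0.013 that exceeded those of only 5.51% and 2.84% of genes. The order of SSA4 among replicates was then set beside that of 23 known Hsf1 target genes, a comparison chosen after these values were seen and given without a test. Empty-plasmid replicate 3 was the highest of its group for SSA4 and for 19 of the 23 targets, and for 26.3% of all genes. Empty-plasmid replicate 2 was the lowest for 15 of the 23 targets, and for 34.1% of all genes. SSA4 was instead lowest on empty-plasmid replicate 1, as were 8 of the 23 and 30.9% of all genes. YEVenus replicate 2 was the lowest of its group for SSA4 and for 15 of the 23 targets, and for 34% of all genes. YEVenus replicate 1 was the highest for SSA4 and for 11 of the 23, and for 36.3% of all genes.

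**Figure D4:**
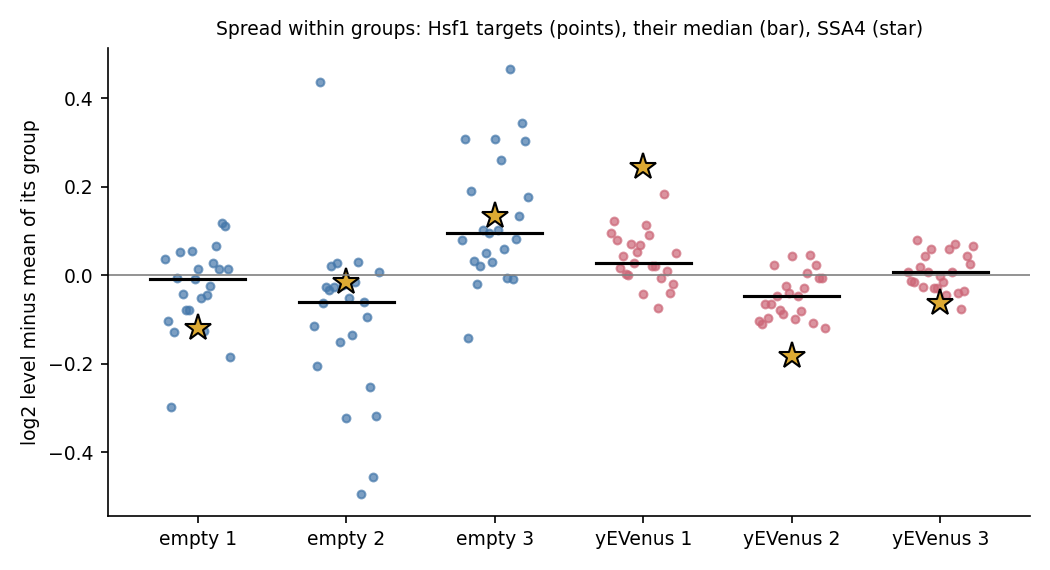
Log2 level minus the mean of its own group (vertical axis) on each array for 23 Hsf1 targets (points, spread sideways for legibility), their median (bars) and SSA4 (stars). The median of the targets was 0.10 on empty-plasmid replicate 3 and -0.06 on replicate 2, and SSA4 ranged from -0.18 to 0.25 on the yEVenus arrays.

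Genes with the most similar profile were found by the Euclidean distance between log2 profiles over the 6 arrays, each centred on its own mean. With 2 groups of arrays this distance mostly reflects the group difference. For SSZ1 the nearest were RGC1, ILS1 and MSS116, at distances of 0.0454 to 0.048. SSA1 was nearest to SAM35 (0.0183), PEX19 and CMG1, SSA2 to SLD2 (0.0269), HCR1 and RPL5, and SSB1 to HXK2 (0.013), POP2 and BUD9. SSB2 was nearest to MID1 (0.0239), RIM11 and ATP1, and SSA3 to CCW12 (0.0391), YDR524C-B and SET6. These 6 members each had 326 to 933 genes within a distance of 0.2, so that the nearest genes are a few among many. SSA4 had 4 such genes, and its nearest were YHR022C (0.173), DLS1 (0.183) and CPR6 (0.186). The spread of SSA4 within groups, given above, also enters these distances, and its part in them was not tested. Within the family, SSA2 and SSB1 were closest, at 0.0712, followed by SSB1 and SSB2 at 0.0977.

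The partners of cytosolic Hsp70 were read from lists of named genes, which were chosen with earlier results of these data known. Counts in them are read against the 41% of all genes that fell and the 29.3% that rose, or 33.5% and 31.4% with the length trend removed. Of 12 J-domain genes, 7 fell and 1 rose; the median difference was -0.28 (log2). CAJ1 fell by 0.59 (limma, adjusted p = 6.3e-05), JJJ2 fell by 0.81 (9.3e-05) and JJJ3, a J-domain gene of the diphthamide pathway, rose by 0.98 (7.91e-05). YDJ1, the main J-domain partner of the Ssa proteins, fell by 0.38 (0.000375), and SIS1, an essential partner of Ssa, by 0.24 (0.0191); this pair was named after their values were seen. SIS1 missed the threshold with the length trend removed (-0.17, adjusted p = 0.0673), with chromosomes centred (-0.19, 0.0511) and with both (-0.19, 0.0588). With the length trend removed 6 of the 12 fell and 2 rose, with a median of -0.16.

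SSE2, the paralogue of the deleted exchange factor gene, fell by 0.85 (limma, adjusted p = 0.000147). FES1, which encodes another exchange factor for Ssa, fell by 0.43 (adjusted p = 0.0235), and SNL1, a membrane-bound one, rose by 0.24 (0.00252). SNL1 is a short gene and turned to -0.11 with the length trend removed. SSE2 and FES1 lie on chromosome II, like SSA3, and with length and chromosome treated together SSE2 was at -0.44 (0.00515) and FES1 at -0.21 (0.223).

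At the ribosome, the partner of Ssz1 moved in the same direction as SSZ1. ZUO1 went from 12.58 ± 0.0645 in the controls to 12.26 ± 0.0466 in yEVenus cells (SD, n = 3 each), which is a log2 difference of -0.32 (limma, adjusted p = 0.00112). It was at -0.16 with the length trend removed (0.0285) and at -0.14 with chromosomes centred as well (0.0511). The nascent chain-associated complex gene EGD2 fell by 0.16 (limma, adjusted p = 0.0184), whereas EGD1 rose by 0.19 (0.00642), and BTT1 had a difference of 0.05 (0.628). These last 3 genes have short coding sequences. Once the length trend was removed, EGD1, EGD2 and BTT1 were at -0.17, -0.46 and -0.35, all past the threshold, so that EGD1 turned in direction.

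Hsp70 genes of other compartments fell in 5 of 5 cases, with a median log2 difference of -0.49, where 41% of all genes and 50.2% of those longer than 1500 and up to 2100 nt fell. Their median coding length was 1974 nt. SSC1, the main mitochondrial Hsp70, was at -0.49 (limma, adjusted p = 6.71e-05), KAR2 of the endoplasmic reticulum at -0.45 (0.000275) and its Hsp110-like partner gene LHS1 at -0.49 (0.000675). With the length trend removed 4 of the 5 still fell. Of 12 Hsp90 and adaptor genes, 7 fell and 2 rose (median -0.24). CNS1, which links Hsp70 and Hsp90, fell by 1.13 (5.5e-06), SBA1 fell by 0.50 (6.91e-05), and TAH1, a short gene of a complex that assembles ribonucleoproteins, rose by 1.53 (2.74e-06). CNS1 lies on chromosome II. With length and chromosome treated together CNS1 was at -0.77, SBA1 at -0.65 and TAH1 at 0.92, all past the threshold. The disaggregase gene HSP104 fell by 0.41 (limma, adjusted p = 0.00144) and the small heat shock gene HSP42 by 0.74 (0.00132), while HSP26 had a difference of 0.14 (0.483). HSP104 missed the threshold with the length trend removed, at -0.17 (0.0927).

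**Figure D5:**
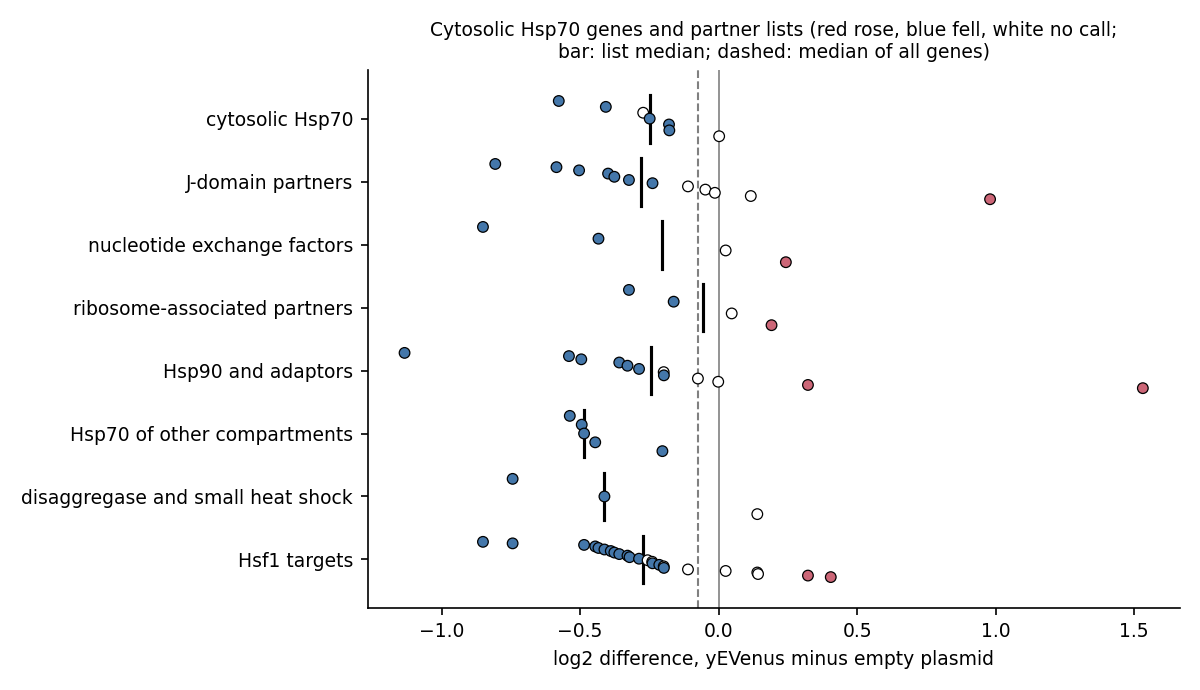
Log2 difference (yEVenus minus empty plasmid, horizontal axis) of each gene of the cytosolic Hsp70 family and of 7 partner lists, coloured by limma call (blue fell, red rose, white no call), with the median of each list (bars) and of all genes (dashed line, -0.07). List medians run from -0.49 for Hsp70 of other compartments to -0.06 for the ribosome-associated partners, beside -0.25 for the cytosolic Hsp70 genes.

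Of 24 Hsf1 targets, which include genes of the lists above and the deleted SSE1, 15 fell and 2 rose, with a median of -0.27, beside 41% and 29.3% of all genes and their median of -0.07. SSC1 and SSE2, given above, had the smallest p, followed by HSP10, which rose by 0.40 (limma, adjusted p = 0.000199) and turned to -0.16 with the length trend removed. With that trend removed 11 fell and 1 rose, where 33.5% and 31.4% of all genes did. HSF1 itself fell by 0.28 (limma, adjusted p = 0.00642) and was at -0.05 with the length trend removed (0.454). Of the general stress activators, MSN2 fell by 0.25 (0.00322) and was at -0.07 with the trend removed (0.24), while MSN4 rose by 0.25 (0.00454), or 0.40 with the trend removed (0.000693). YAP1 fell by 0.42 (0.000935), GCN4 by 0.27 (0.00168) and RPN4, the activator of proteasome genes, by 0.32 (0.0034).

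Markers of cell type were read as a check on the cultures. Of 7 a-specific genes 5 rose and 1 fell, where 29.3% and 41% of all genes did, and their levels ran from 7.63 to 12.43 in the control group. The 3 with the smallest p were AGA2 (264 nt) at 1.95, MFA1 (111 nt) at 1.72 and ASG7 (630 nt) at 0.78 in log2 difference, and genes of up to 300 nt had a median of 0.57. Of the others, MFA2 was at 0.71 and BAR1 at 0.41, both past the threshold. STE2 had no call at -0.09 (limma, adjusted p = 0.139), and STE6 (3873 nt) fell, at -0.36 (0.00272). With the length trend removed AGA2 was at 1.34, MFA1 at 1.34 and ASG7 at 0.60. In that setting 5 of the 7 rose and 0 fell, with a median of 0.55, where 31.4% and 33.5% of all genes did. Of 4 alpha-specific genes 3 rose and 1 fell, where 29.3% and 41% of all genes did. With the length trend removed 2 rose and 1 fell, where 31.4% and 33.5% of all genes did. In that setting MF(ALPHA)2 (363 nt) turned from 0.34 to -0.18 (limma, adjusted p = 0.184). The alpha-factor gene MF(ALPHA)1 was at a log2 level of 3.32 in the controls and 3.98 in yEVenus cells, within the range of the tag probe sets. MF(ALPHA)2 went from 4.68 to 5.02, the a-factor receptor gene STE3 from 6.50 to 5.64 and the alpha-agglutinin gene SAG1 from 8.53 to 8.75, all above that range. The part of these markers in the differences of the Hsp70 genes was not tested.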

How the data were processed

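Total RNA (200 ng per sample, per the labels' protocols) was labelled by 3' in vitro transcription and hybridised to Affymetrix arrays. The deposited values are log2 expression levels for 5900 probe sets on 6 arrays. Per the submitters' processing notes they were made with RMA and R 3.2.0; the build and filters were not given in the sources used here. RMA makes the distributions of probe intensities equal across arrays before probe sets are summarised, so a change shared by all transcripts would not show. The distributions of probe set values can still differ between arrays. Array medians lay between 9.06 and 9.13. Within-group array correlations were 0.996 to 0.998 and between-group ones 0.966 to 0.978. The number of arrays limits the precision, and no labelling or scan batch is given.

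The platform annotation names 1 gene for 5498 probe sets, several for 0 and none for 402, of which 137 are controls. Symbols were updated through gene identifiers in RefSeq's R64 table (12 changed), which also gave chromosomes and lengths. The brightest probe set by mean stood for a gene (47 genes had several). No filter on low values was applied. The comparison used lmFit and eBayes of limma 3.58.1 (R 4.3.3) with 4 residual degrees of freedom. The test was checked on simulated arrays. In the length setting a loess trend (span 0.5) of each array's deviations from gene means on log2 coding length was subtracted. In the chromosome setting these deviations were centred on each chromosome's median. Other settings were cyclic loess, median centring, quantile normalization, leaving out the dimmest 25% of genes, other probe set rules, variance models, array weights, a replicate block, stricter thresholds and leaving out each array.

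The 7 genes and all lists were chosen with earlier results of these data known. Named genes were the 7, SSE1, all members of lists of up to 4 genes, the 3 with the smallest p of longer lists, the stress regulators and the 3 genes most like each of the 7. Promoter motifs were not analysed here.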

Additional observations from a re-analysis of the deposited data

Results flagged for a closer look

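The control probe sets showed a signal outside the gene comparison. The 3' minus 5' gap in log2 level, averaged over 7 of the 8 yeast genes with such probe sets, was 1.83 ± 0.029 on the empty-plasmid arrays and 2.48 ± 0.067 on the yEVenus arrays (SD of array means, n = 3 each), and for 7 of the 7 genes all yEVenus arrays lay above all control arrays. The eighth gene, URA3, was left out because both its probe sets lay at the floor, with mean levels of 2.82 (3') and 2.88 (5'). Its gap was -0.06 in both groups and its groups overlapped. SRB4 was kept, although its 5' probe set, at 3.78, was within the range of the tag probe sets. The gap of SRB4 was 4.97 on the empty-plasmid arrays and 5.72 on the yEVenus arrays. None of the 8 is an Hsp70 gene.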

How the results depend on the processing

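SSZ1 kept its direction and stayed past the threshold in all 21 alternatives, between -0.62 and -0.44. SSA1 did so in 19 of 21, the exceptions being chromosomes centred (-0.0010) and length and chromosome together (0.10, a turn in direction). The count of called members was 5. It was 3 with median centring, 2 against a minimum change of 1.2-fold, and 3 with the length trend removed, with chromosomes centred and with both. All genes called numbered 3835, and 1753 against the minimum change. SSA2 lost its call with median centring (-0.11), the minimum change and an adjusted p under 0.01 (-0.18 each), the length trend removed (-0.026), chromosomes centred (-0.13) and both (-0.038). SSB1 lost it with median centring (-0.11), the minimum change (-0.18), the length trend removed (-0.034), chromosomes centred (-0.11) and both (-0.041). SSB2 lost it against the minimum change (-0.25) and with the length trend removed (-0.10). SSA4 gained a call without the dimmest genes and with an intensity trend (-0.27 each) and with array weights (-0.32). SSA3 gained an upward one with the length trend removed (0.16), chromosomes centred (0.30) and both (0.40). SSA1 relative to SSA2 turned to 0.12 with chromosomes centred and 0.13 with both. The disaggregase and small heat shock list had 1 call with the length trend removed and with both, against 2. The Hsf1 targets had 11 calls with both, against 17. The cause of these moves was not tested beyond the construction of each setting.

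Leaving out each array in turn gave 3359 to 3809 genes called, 4 to 6 of the 7 members called, and differences of -0.44 to -0.38 for SSA1, -0.20 to -0.15 for SSA2, -0.012 to 0.017 for SSA3, -0.40 to -0.18 for SSA4, -0.19 to -0.16 for SSB1, -0.28 to -0.23 for SSB2 and -0.62 to -0.55 for SSZ1. SSA3 turned in sign when empty-plasmid replicate 1 (-0.0082) or yEVenus replicate 3 (-0.012) was left out, in each case far from the threshold. The deviations of same-numbered arrays had correlations of 0.19, -0.13 and 0.20, and those of differently numbered arrays had -0.39 to 0.22. With 3 arrays a group these values cannot settle whether the numbers pair the cultures, and no pairing is given in the labels. With the replicate block 5 members and 3827 genes were called, and the difference of SSA4 (-0.27) had an adjusted p of 0.0853 in limma.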

Other observations

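The measured genes that lie next to each Hsp70 gene, 5 on either side, gave a local view of the differences. The 10 neighbours of SSA1 on chromosome I had a median log2 difference of -0.54, and 3 of them lay above SSA1. Those of SSA3 on chromosome II had a median of -0.17, and 2 of 10 lay above SSA3. SSZ1 was lower than 9 of its 10 neighbours, whose median was -0.23, and SSB2 lower than 8 of 10, whose median was -0.01. For SSA2, SSA4 and SSB1 the neighbours' medians were -0.25, -0.32 and -0.20, with 4, 5 and 4 of 10 above the gene. These values were computed without a test.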
